A study of Mus musculus with 15 samples.

Results

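The genes described here are 51 genes of DNA replication and of the passage from G1 into S phase, taken as a list of symbols out of 19938 genes measured in cultured mouse cardiac cells. Where several probe sets named a gene alone, the brightest on average over the 15 arrays stood for it. All 51 were measured and none was removed by a filter on low values. By role the list held 11 genes that license replication origins, 7 that activate the helicase, 17 of the replication fork, 5 of deoxynucleotide supply, 5 of chromatin copying and 6 that control entry into S phase.

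The study followed fibroblast-like colony-forming cells from the heart (cCFU-F) in culture, with 3 arrays in each of 5 groups. All came from male C57BL/6 mice aged 12 weeks, from cardiac cells isolated as SCA1+ PDGFRα+ CD31-. Large and small colonies were kept apart, and some small colonies received 50 ng/ml PDGF-AB, a dimeric growth factor that binds PDGF receptors. Untreated large colonies were measured at passage 5 (early large) and passage 15 (late large), untreated small colonies at passage 5 (early untreated small), and small colonies with PDGF-AB at passage 5 (early treated small) and passage 15 (late treated small). No group of untreated small colonies at passage 15 was analysed here, so at that passage colony size and PDGF-AB cannot be told apart. Whether replicate arrays stand for different cultures or mice is not given in the labels, and p-values here reflect only array-to-array spread, part or all of which may be technical.

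DNA replication begins when the origin recognition complex, with Cdc6 and Cdt1, loads the MCM helicase onto origins in G1. Cyclin E with CDK2 and the Cdc7-Dbf4 kinase then start the loaded helicases, with Cdc45 and the GINS complex joining them, and DNA polymerases copy both strands behind them. Many of the genes concerned are transcribed by E2F factors once cyclin-dependent kinases have inactivated the retinoblastoma protein, so they are widely used as a readout of proliferating cells, cardiac stromal cells among them.

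The promoters of the list are shown because E2F sites in them are the textbook link between these genes. RefSeq promoter sequences (build GRCm38.p6), each 250 bases before to 50 bases after a start site, were found for 43 of the 51 genes, in 53 windows. The motif searched was TTTCCCGC, TTTCGCGC, TTTGCCGC or TTTGGCGC on either strand, and a match is a description of the letters and not evidence of binding. Below, in each role that had any match, the member with matches that changed most with passage in large colonies or, for activation, the only one is shown, with matches in capitals. No nucleotide gene had a match. The windows lie at chr8:75109259-75109558 (Mcm5), chr8:95633309-95633608 (Gins3), chr9:65890073-65890372 (Pclaf), chr17:56304063-56304362 (Uhrf1) and chr10:110745189-110745488 (E2f7), all on the plus strand and printed 5′ to 3′.
Mcm5: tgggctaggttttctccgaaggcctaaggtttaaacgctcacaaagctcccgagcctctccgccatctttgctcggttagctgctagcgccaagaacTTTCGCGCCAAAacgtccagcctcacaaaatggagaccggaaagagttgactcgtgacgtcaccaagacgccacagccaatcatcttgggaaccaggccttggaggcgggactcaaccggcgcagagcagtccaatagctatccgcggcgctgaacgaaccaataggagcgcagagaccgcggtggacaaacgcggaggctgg
Gins3: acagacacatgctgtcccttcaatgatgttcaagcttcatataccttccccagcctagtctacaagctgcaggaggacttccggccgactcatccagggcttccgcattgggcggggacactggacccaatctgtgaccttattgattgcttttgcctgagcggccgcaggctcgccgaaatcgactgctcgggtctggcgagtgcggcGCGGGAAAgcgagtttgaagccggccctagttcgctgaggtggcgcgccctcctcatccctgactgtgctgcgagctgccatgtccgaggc
Pclaf: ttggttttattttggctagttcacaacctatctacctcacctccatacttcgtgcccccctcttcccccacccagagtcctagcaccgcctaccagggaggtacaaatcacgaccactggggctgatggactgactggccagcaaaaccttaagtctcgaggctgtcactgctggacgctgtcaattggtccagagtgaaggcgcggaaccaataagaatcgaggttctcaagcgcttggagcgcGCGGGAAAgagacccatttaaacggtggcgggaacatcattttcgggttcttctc
Uhrf1: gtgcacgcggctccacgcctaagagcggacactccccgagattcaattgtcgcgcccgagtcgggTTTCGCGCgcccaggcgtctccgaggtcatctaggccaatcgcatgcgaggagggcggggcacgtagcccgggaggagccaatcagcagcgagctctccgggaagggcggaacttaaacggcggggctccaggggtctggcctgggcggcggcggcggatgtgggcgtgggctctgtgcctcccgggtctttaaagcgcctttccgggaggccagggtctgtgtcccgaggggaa
E2f7: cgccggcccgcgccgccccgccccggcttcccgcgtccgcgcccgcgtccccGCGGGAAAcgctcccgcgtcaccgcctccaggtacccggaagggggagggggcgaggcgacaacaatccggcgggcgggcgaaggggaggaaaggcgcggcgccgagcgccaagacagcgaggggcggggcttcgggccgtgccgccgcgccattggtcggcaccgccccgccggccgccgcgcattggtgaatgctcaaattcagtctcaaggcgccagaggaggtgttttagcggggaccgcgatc
In Mcm5 the capitals hold 2 overlapping matches on opposite strands, the first 153 bases before the start site. The match in Pclaf lay across the start site, and that in Gins3 began 41 bases before it. Those in Uhrf1 and E2f7 lay 185 and 198 bases before the start site of the window shown. A further Uhrf1 window, at the annotated start of the gene (chr17:56303087-56303386), had no match. At least 1 match was found in 18 of the 53 windows (34%), against 744 of 32851 RefSeq windows (2.26%) and 607 of 21263 windows of protein-coding genes (2.85%). Of the 25 matches in the list, 20 lay between 150 bases before and 50 bases after the start site, and the median position of all was -27 relative to it. The CCAAT letters occurred in 58.5% of the list's windows and 37.4% of all, and TTTGAA, the core of a motif of late cell cycle genes, in 20.8% and 17.9%. In the windows of a list of mitosis genes the order differed, with the E2F letters in 1 of 15 (6.67%), CCAAT in 14 and TTTGAA in 11. The 18 genes with an E2F match had a median passage change in large colonies of 2.01 on the log2 scale (range 0.21 to 3.79), and the 25 without one had 1.52 (range 0.22 to 4.22). The difference between the 2 sets was not tested.

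All values are log2 intensities, on which 1 unit is a 2-fold difference, and values of different genes come from different probes and are not compared in level. Array medians lay between 5.59 and 5.72 and lower quartiles between 4.06 and 4.23. Arrays of the same group correlated at 0.997 to 0.998 over all genes. Of the sort markers, Pdgfra was between 6.28 and 6.66 in group mean except in late large colonies (8.84 ± 0.15, SD, n = 3), Pecam1, which encodes CD31, lay between 4.29 and 4.59, and Ly6a, which encodes SCA1, was not analysed here. The mean of 7 stromal markers was at or above 9.91 in every array, while the mean of 5 endothelial markers was at or below 4.55. Group means fell under the arrays' lower quartile for Orc1 in 3 groups and for Gins1, Pole2 and Ccne2 in 1 group each, and changes of such genes are measured near the bottom of the scale.

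Passage gave the main contrast. In large colonies 50 of the 51 genes rose from passage 5 to passage 15 and none fell, with a median change of 1.74 on the log2 scale (3.34-fold). Of all 19938 genes 36.1% were called at an adjusted p under 0.05, 17.4% as higher and 18.7% as lower, and the median change of all genes was -0.04. In small colonies with PDGF-AB 50 genes also rose and none fell, with a median of 1.86 (3.64-fold), where 46.0% of all genes were called and 24.6% were called higher and 21.4% lower. In each of the 2 comparisons 43 members rose by at least 2-fold, against 2.59% and 2.47% of all genes, and no member fell that far, against 1.18% and 2.79%. Only E2f2 was not called in either. RNA of whole cultures was measured, so more cells in S phase and more RNA per cell cannot be told apart.

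**Figure D1:**
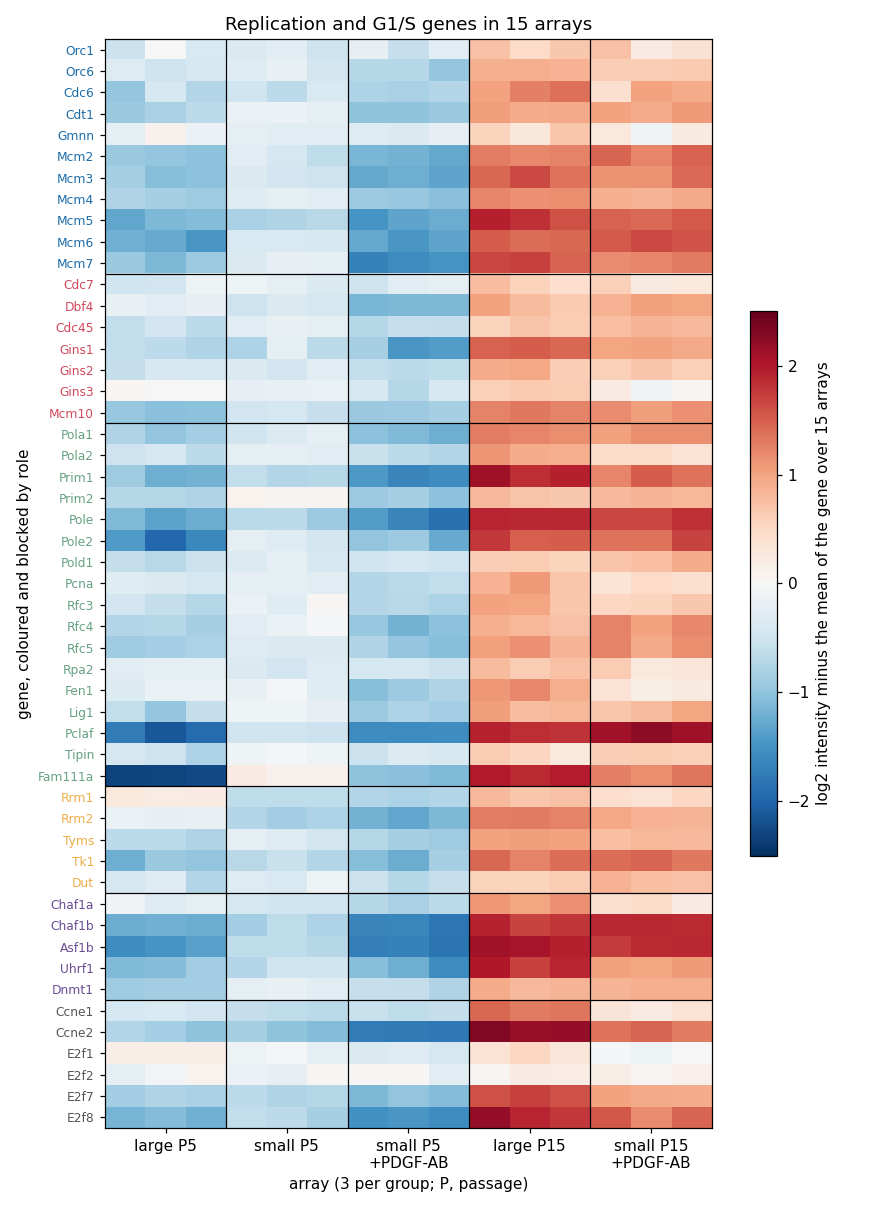
Heatmap of the 51 genes (vertical, blocked by role) in 15 arrays (horizontal, 3 per group), as log2 intensity minus the gene's mean over all arrays. The 6 passage 15 arrays on the right are high for 47 genes, each above all 9 passage 5 arrays, and the early treated small arrays are the lowest group for 40 genes.

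For 47 members all 6 passage 15 arrays lay above all 9 passage 5 arrays, which held for 1031 genes overall (5.17%). The exceptions were Gmnn, Gins3, E2f1 and E2f2. Within each array the median of the 51 genes was between 6.20 and 6.27 in early large colonies, 6.68 and 6.73 in early untreated small colonies and 6.00 and 6.09 in early treated small colonies. At passage 15 it was 8.05 to 8.06 in treated small colonies and 8.08 to 8.38 in large colonies, where replicate 3 gave the lowest value for 24 genes. Of the 100 genes that rose most with passage, 16 were members in large colonies and 14 in treated small colonies. Other cell type markers moved as well. The stromal mean in large colonies went from between 9.91 and 9.96 to between 10.68 and 10.70. Of its 7 markers 4 were called higher, 1 was called lower and 2 were not called (median 0.67). The mean of 5 leukocyte markers went from between 5.52 and 5.56 to between 4.86 and 4.96 in treated small colonies. Only Lyz2, which encodes lysozyme, was called lower there (by 3.58), while 3 of the 5 were called higher, with a median change of 0.17. Ptprc, the pan-leukocyte CD45, changed by 0.24 there and was between 3.86 and 4.12 in every group mean. The part of these markers in the passage results was not tested.

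**Figure D2:**
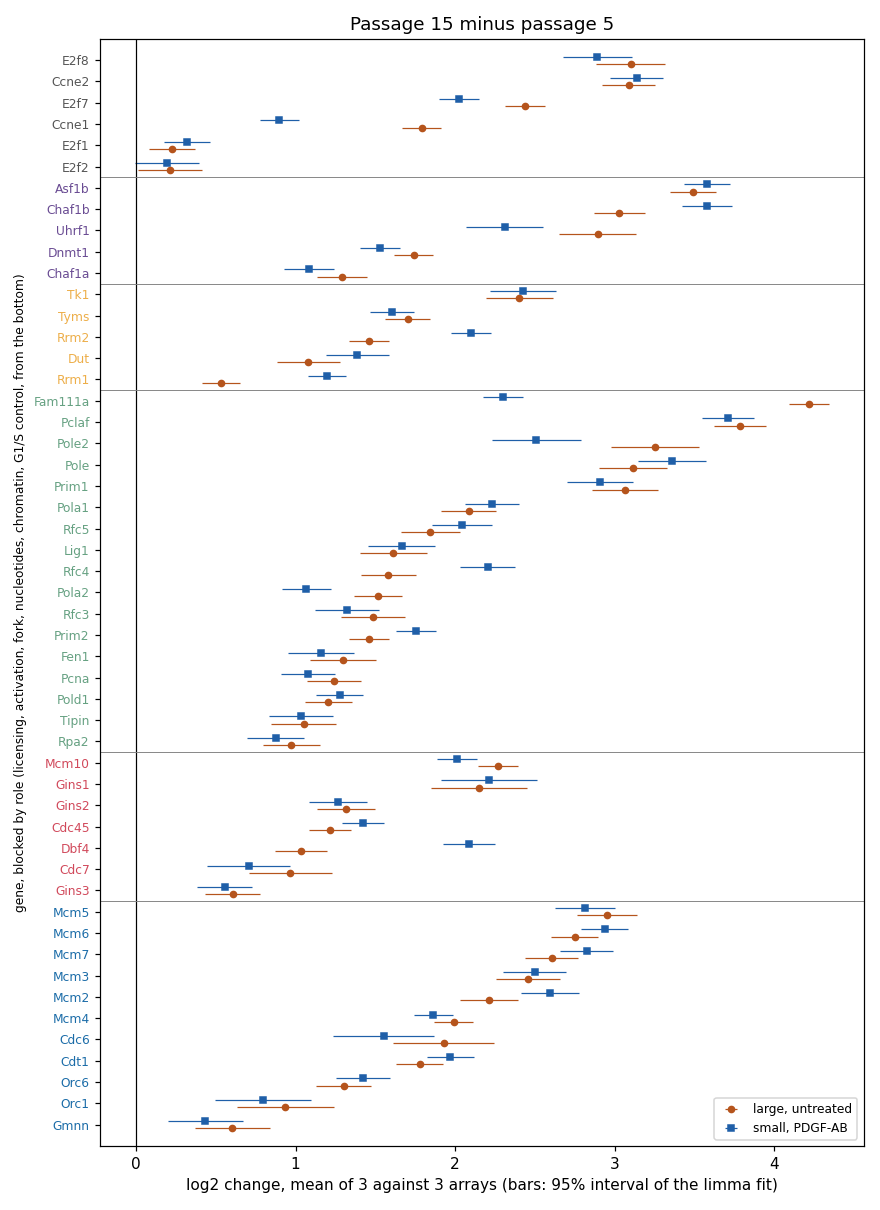
Change from passage 5 to passage 15 for each of the 51 genes, as log2 difference of means of 3 arrays with its 95% interval, in untreated large colonies (circles) and PDGF-AB treated small colonies (squares). All points lie above 0, from 0.19 (E2f2) to 4.22 (Fam111a), and the circles and squares stand furthest apart for Fam111a, Dbf4 and Ccne1.

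Among the licensing genes all 11 rose with passage in both kinds of colony. The 6 subunits of the MCM helicase, which unwinds the DNA ahead of the fork, rose by 1.99 (Mcm4) to 2.95 (Mcm5) in large colonies and by 1.86 to 2.94 in treated small colonies. Mcm5 measured 6.43, 6.62 and 6.66 in early large colonies against 9.67, 9.57 and 9.32 in late ones. In small colonies it was 6.93, 6.99 and 7.05 without PDGF-AB, 6.26, 6.41 and 6.50 with it, and 9.21, 9.15 and 9.26 after passage with it. The rise was 2.95 ± 0.09 (SE, n = 3 arrays a group, 7.74-fold, limma adjusted p = 1.55e-13) in large colonies, and late and early arrays lay far apart. Mcm6, the second largest, read 5.97, 5.92 and 5.72 in early large and 8.69, 8.57 and 8.60 in late large colonies. Small colonies gave 6.79, 6.80 and 6.78 untreated, 5.90, 5.72 and 5.85 treated and 8.71, 8.82 and 8.75 late. Here the untreated small arrays stood between the other early arrays and the late ones. Gmnn, which encodes the Cdt1 inhibitor geminin, changed least, at 4.43, 4.77 and 4.51 in early large and 5.22, 4.95 and 5.35 in late large colonies (0.60 ± 0.11, adjusted p = 3.26e-04). Its small colony values were 4.44, 4.38 and 4.37 untreated, 4.33, 4.29 and 4.46 treated, and 4.93, 4.57 and 4.88 late. The late treated arrays of Gmnn overlapped those of early large colonies. Orc1, the largest subunit of the origin recognition complex, rose by 0.93 and 0.79, and Cdc6 and Cdt1, which help to load the helicase, rose by 1.93 and 1.78 in large colonies.

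All 7 activation genes rose as well. Mcm10, a scaffold that helps to start the helicase, read 5.02, 4.92 and 4.94 in early large and 7.21, 7.28 and 7.21 in late large colonies (2.27 ± 0.06, 4.83-fold). It read 5.49, 5.52 and 5.38 in untreated small colonies, 5.03, 5.06 and 5.14 with PDGF-AB and 7.14, 7.01 and 7.11 late. The 3 genes of the GINS complex, whose products work as 1 assembly, rose in large colonies, Gins1 by 2.15, Gins2 by 1.32 and Gins3 by 0.61. Gins1 was 4.75, 4.71 and 4.60 in early large and 6.84, 6.87 and 6.79 in late large colonies. Its small colony values were 4.59, 5.14 and 4.69 untreated, 4.52, 3.90 and 3.96 treated, and 6.35, 6.36 and 6.31 late, the treated early arrays being at the bottom of the scale. Gins3 was 6.44, 6.40 and 6.37 early and 6.97, 7.04 and 7.02 late in large colonies, and 6.17, 6.19 and 6.21, then 5.99, 5.68 and 5.97, then 6.58, 6.29 and 6.44 in the untreated, treated and late treated small colonies. Its late treated arrays lay on both sides of the early large ones. Cdc7, the kinase that starts the MCM helicase, rose by 0.97 and 0.71. Its partner Dbf4 read 7.18, 7.10 and 7.16 in early large and 8.36, 8.16 and 8.02 in late large colonies. It read 6.85, 7.0 and 6.92 in untreated small, 6.22, 6.24 and 6.24 in treated small and 8.23, 8.39 and 8.35 in late treated small colonies. Dbf4 rose by 1.03 in large and by 2.09 in treated small colonies, and the late arrays of both overlapped while the 3 early groups were separate.

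The fork genes held the largest changes. All 17 rose in both kinds of colony, and Rpa2 was the smallest. Fam111a, a protease of the fork in human cells that lies at chr19:12573510-12589769, read 4.78, 4.80 and 4.84 in early large and 9.07, 8.95 and 9.05 in late large colonies, a change of 4.22 ± 0.06 (18.6-fold, adjusted p = 6.57e-17). Small colonies read 7.30, 7.19 and 7.19 untreated, 6.08, 6.05 and 5.98 with PDGF-AB and 8.35, 8.25 and 8.42 late. No group overlapped another, and the early groups themselves spanned more than 2 log2 units. Pclaf, which binds the sliding clamp PCNA, read 6.01, 5.63 and 5.82 in early large and 9.68, 9.59 and 9.55 in late large colonies (3.79 ± 0.08, 13.8-fold). It was 7.25, 7.25 and 7.22, then 6.18, 6.18 and 6.19, then 9.84, 9.99 and 9.86 in the small colony groups in the same order. The highest arrays of Pclaf were those of late treated small colonies. Rpa2, a subunit of the single-strand binding protein RPA, went from 6.07, 6.11 and 6.10 to 7.14, 6.98 and 7.07 in large colonies (0.97 ± 0.08, 1.96-fold). Its small colony values were 5.99, 5.86 and 6.03 untreated, 5.90, 5.90 and 5.81 treated, and 6.98, 6.61 and 6.64 late, so the early groups lay close together.

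All polymerase genes of the list rose. For polymerase epsilon, which copies the leading strand, Pole rose by 3.12 and Pole2 by 3.25 in large colonies. Polymerase alpha with primase, which lays down primers, had rises of 3.06 (Prim1), 2.08 (Pola1), 1.52 (Pola2) and 1.46 (Prim2), and Pold1, the catalytic subunit of the lagging-strand polymerase delta, rose by 1.21. The clamp loader genes Rfc3, Rfc4 and Rfc5 rose by 1.48, 1.58 and 1.85, and the clamp gene Pcna by 1.24. Fen1 and Lig1, which trim and join Okazaki fragments, rose by 1.30 and 1.61, and Tipin, of the fork protection complex, by 1.05. A further probe set named Pclaf, Pcna or Tk1 alone, with passage changes in large colonies of 4.66, 1.24 and 3.20 against 3.79, 1.24 and 2.40 for those used, so the sizes for Pclaf and Tk1 depend on the probe set and reads of near-identical copies of these genes were not told apart.

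The 5 nucleotide genes all rose. Tk1, the thymidine kinase of dividing cells, went from 6.15, 6.45 and 6.39 to 8.81, 8.62 and 8.77 in large colonies (2.40 ± 0.10, 5.29-fold). In small colonies it was 6.67, 6.82 and 6.63 untreated, 6.31, 6.14 and 6.54 treated and 8.77, 8.82 and 8.68 late. With the probe set used, the late arrays of both kinds of colony overlapped. Tyms, which makes thymidylate, read 7.47, 7.46 and 7.37 in early large and 9.12, 9.16 and 9.13 in late large colonies (1.70 ± 0.06). Its small colony values were 7.89, 7.80 and 7.66, then 7.40, 7.29 and 7.23, then 8.87, 8.94 and 8.93, with the same order of groups as Mcm5. Rrm1 and Rrm2 encode the large and small subunits of ribonucleotide reductase, which makes deoxynucleotides. Rrm1 changed least of the role in large colonies, from 10.46, 10.38 and 10.40 to 11.01, 10.90 and 10.93 (0.53 ± 0.06, 1.45-fold, adjusted p = 8.14e-07). The small colony values were 9.56, 9.57 and 9.56 untreated, 9.46, 9.40 and 9.46 treated and 10.62, 10.57 and 10.72 late. For Rrm1 the early large arrays stood well above both early small groups. Rrm2 was likewise higher in early large (8.52, 8.47 and 8.50) than in untreated (7.95, 7.82 and 7.91) and treated small colonies (7.51, 7.38 and 7.55), and reached 9.97, 9.99 and 9.92 in late large and 9.64, 9.56 and 9.54 in late treated small colonies.

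Chromatin genes showed a wide range. Asf1b, a histone chaperone, went from 5.87, 5.93 and 6.06 to 9.51, 9.47 and 9.35 in large colonies (3.49 ± 0.07, 11.3-fold). In small colonies it read 6.78, 6.77 and 6.70 untreated, 5.71, 5.73 and 5.58 treated and 9.17, 9.28 and 9.30 late. Chaf1b and Chaf1a encode subunits of the same assembly factor, CAF-1, which places histones behind the fork. Chaf1b went from 5.88, 5.93 and 5.89 to 9.06, 8.81 and 8.92 in large colonies (3.03 ± 0.07), and read 6.25, 6.49 and 6.35, then 5.48, 5.49 and 5.32, then 9.02, 9.02 and 8.99 in small colonies. Chaf1a went from 6.40, 6.17 and 6.26 to 7.58, 7.49 and 7.63 (1.29 ± 0.07), and read 6.06, 6.00 and 5.99, then 5.78, 5.69 and 5.83, then 6.90, 6.95 and 6.70. The late arrays of Chaf1b overlapped between the kinds of colony, while for Chaf1a the late large arrays were all higher. Uhrf1, which recruits the maintenance methylase to copied DNA, rose by 2.89 and 2.31, and Dnmt1, that methylase, by 1.74 and 1.53.

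Of the 6 genes that control entry into S phase, E2f7 and E2f8, which encode E2F family repressors, and both cyclin E genes rose by 2-fold or more in large colonies, while E2f1 and E2f2, which encode activators, moved little. E2f8 read 4.91, 5.00 and 4.88 in early large and 8.27, 7.98 and 7.85 in late large colonies (3.10 ± 0.10, 8.58-fold). It read 5.45, 5.42 and 5.24 untreated, 4.57, 4.62 and 4.53 treated and 7.62, 7.26 and 7.52 late in small colonies. E2f7 rose by 2.44 and 2.02. Ccne2, which encodes cyclin E2, went from 5.15, 5.02 and 4.88 to 8.20, 8.05 and 8.07 (3.09 ± 0.08, 8.50-fold), and read 5.05, 4.88 and 4.79, then 4.13, 4.10 and 4.09, then 7.23, 7.34 and 7.18 in small colonies. Ccne1, for cyclin E1, went from 7.88, 7.94 and 7.84 to 9.75, 9.62 and 9.66 in large colonies (1.79 ± 0.06), and read 7.71, 7.68 and 7.65, then 7.75, 7.69 and 7.71, then 8.64, 8.53 and 8.68 in small colonies. The early small arrays of Ccne1 overlapped with and without PDGF-AB, while those of Ccne2 did not. E2f1 read 9.34, 9.35 and 9.35 early and 9.54, 9.70 and 9.48 late in large colonies (0.22 ± 0.07, adjusted p = 0.0145), and its call was lost without replicate 2 of late large colonies (adjusted p = 0.0866). Its small colony values were 9.05, 9.13 and 8.95, then 8.83, 8.87 and 8.75, then 9.14, 9.06 and 9.20, so late treated arrays were below early large ones. E2f2 read 5.57, 5.74 and 5.89 early and 5.85, 6.01 and 5.98 late in large colonies (0.21, 95% interval 0.01 to 0.41, adjusted p = 0.0976). In small colonies it was 5.66, 5.59 and 5.82, then 5.82, 5.82 and 5.51, then 5.97, 5.85 and 5.92 (passage 0.19, 95% interval -0.01 to 0.40, adjusted p = 0.107), and its early and late arrays overlapped in large colonies.

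**Figure D3:**
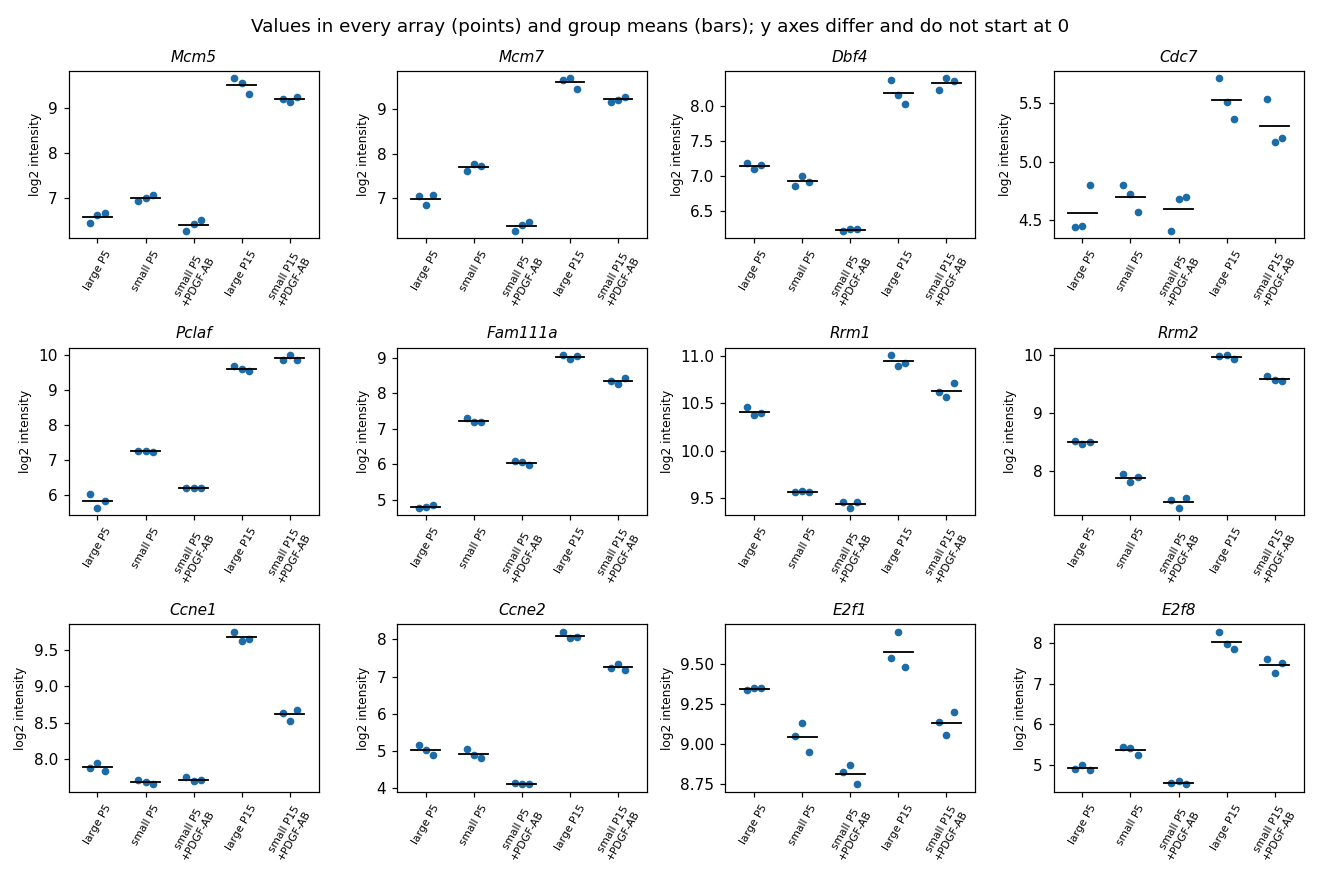
Log2 intensity of 12 genes in every array (points) with group means (bars), for the 5 groups; each panel has its own vertical axis, which does not start at 0. Mcm5, Pclaf and E2f8 show late arrays far above early ones, Rrm1 and Rrm2 show early large above early small colonies, and E2f1 spans the narrowest range, from 8.75 to 9.70.

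At passage 5 untreated large colonies were lower than untreated small colonies for most of the genes. Of the 51, 30 were lower, 7 were higher and 14 were not called, where 36.2% of all genes were called (18.2% higher and 18.0% lower). The median difference, large minus small, was -0.37, against 0.03 for all genes. A difference of at least 2-fold was called for 3 members as lower and none as higher, against 2.11% and 1.82% of all genes. Fam111a differed most (-2.42 ± 0.06, 5.36-fold lower, adjusted p = 7.38e-15), then Pclaf (-1.42), Pole2 (-1.33) and Mcm6 (-0.92). All 6 MCM genes were lower, by 0.42 to 0.92 in size, as were the 4 polymerase alpha and primase genes and the 3 clamp loader genes. The stromal marker mean was also lower in these large colonies, between 9.91 and 9.96 against 10.70 to 10.85. Of its 7 markers 3 were called lower, each by at least 2-fold, 1 was called higher and 3 were not called (median -0.08). The part of these markers in the result was not tested.

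The 7 genes that were higher in large than in small colonies included both subunits of ribonucleotide reductase, Rrm1 (0.85 ± 0.06, 1.81-fold, adjusted p = 2.37e-09) and Rrm2 (0.61 ± 0.06, 1.52-fold). E2f1 (0.31) and Ccne1 (0.20) were also higher, and the calls of these 4 held in every alternative except the 2-fold minimum. Dbf4 (0.22), Gins3 (0.22) and Chaf1a (0.26) completed the 7, but lost their calls in some, with adjusted p up to 0.118, 0.108 and 0.058, and without replicate 1 of early large colonies only 4 genes were called higher. For these 7 the array values given above did not overlap between the groups, as for 23.4% of all genes with large colonies above. The 14 genes not called were Orc1, Orc6, Cdc6 and Gmnn among the licensing genes, Cdc7, Gins1 and Gins2, then Pcna, Rpa2, Fen1, Dut, Ccne2, E2f2 and E2f7. For Ccne2 the difference was 0.11 (95% interval -0.06 to 0.28) and for Fen1 -0.05 (-0.26 to 0.15).

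PDGF-AB in small colonies at passage 5 went with lower values. Of the 51 genes 42 fell, none rose and 9 were not called, where 28.9% of all genes were called, 18.2% as lower and 10.7% as higher. The median change was -0.58 (1.49-fold lower), against 0.02 for all genes, and 23 members were among the 500 genes that fell most. Mcm7 fell by 1.32 ± 0.08 (2.49-fold, adjusted p = 2.24e-09), from 7.62, 7.77 and 7.73 to 6.28, 6.40 and 6.48. Fam111a fell by 1.19, Asf1b by 1.08 and Pclaf by 1.06, and these were the 4 genes that fell by 2-fold or more (0.983% of all genes fell and 0.411% rose that far). With its further probe set Pclaf had group means of 5.83 untreated and 4.23 treated, so its place among the 4 depends on the probe set. All 6 MCM genes fell, by 0.60 (Mcm5) to 1.32 (Mcm7), as did the 3 GINS genes, the 4 polymerase alpha and primase genes, the clamp loader genes and all 5 chromatin genes.

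For pairs of genes that act in the same step the values with PDGF-AB were as follows, and differences between genes were not tested. Ccne2 fell by 0.80 ± 0.08 (adjusted p = 9.96e-07) while Ccne1 changed by 0.04 (95% interval -0.09 to 0.16). Dbf4 fell by 0.69 and its partner Cdc7 gave -0.10 (-0.36 to 0.16). Rrm2 fell by 0.41, and Rrm1 gave -0.12 (-0.24 to -0.00, adjusted p = 0.119), with adjusted p from 0.0457 to 0.304 over the alternatives and a call in 2 of 15, trend and robust moderation and array weights. The other genes not called were Orc1, Cdc6, Gmnn, Pold1, Rpa2 and E2f2. Of the 42 calls, those of Gins2, Gins3, Tipin, Tk1, Dut, Chaf1a and E2f1 were lost in at least 1 alternative, with adjusted p up to 0.114, 0.0574, 0.0637, 0.0542, 0.0717, 0.0811 and 0.0925. The mean of 5 cardiomyocyte markers moved with the treatment, from between 6.16 and 6.26 to between 6.52 and 6.57, with Tnnt2 (troponin T) higher by 0.78. Of these 5 markers 2 were called higher, none lower and 3 were not called, and their part in the result was not tested.

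**Figure D4:**
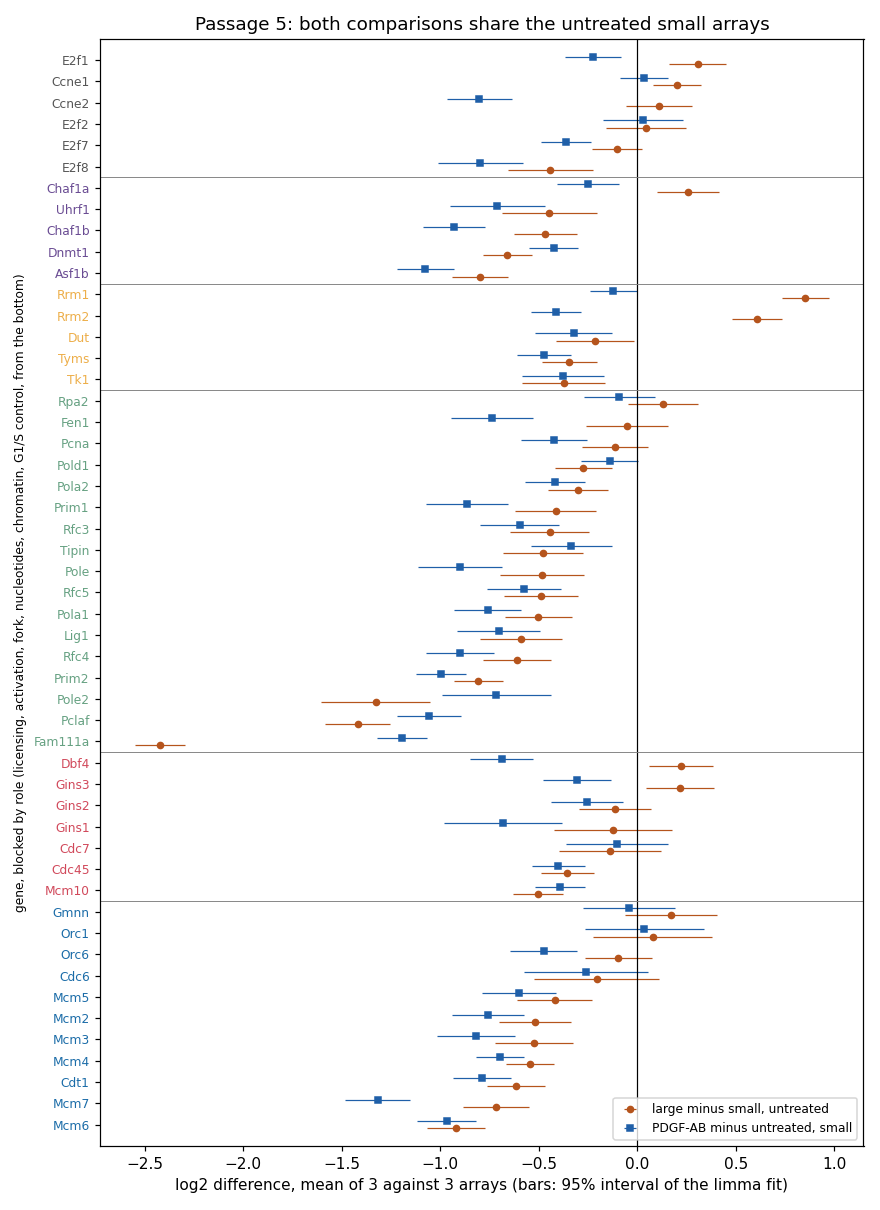
Differences at passage 5 for each of the 51 genes as log2 difference of means of 3 arrays with its 95% interval, large minus small untreated colonies (circles) and PDGF-AB minus untreated small colonies (squares). The 2 comparisons share the untreated small arrays; circles run from -2.42 (Fam111a) to 0.85 (Rrm1) and squares from -1.32 (Mcm7) to 0.04.

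The order of the 5 early and late groups varied between members, and the counts below were not made over all genes. Late large colonies were the highest group for 36 genes and late treated small colonies for the other 15. The lowest group was early treated small colonies for 40 genes, early large colonies for 8 and early untreated small colonies for 3. The most frequent full order, from high to low, was late large, late treated small, early untreated small, early large and early treated small. It was seen in 21 of the 51 genes. The median SD of a member within a group was 0.0756 to 0.105, and neighbours in this order that were not called in the comparisons given here are not shown to differ.

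Treated small colonies were then set against untreated large colonies at each passage, where colony size and PDGF-AB differ together. At passage 5, 24 genes were lower in treated small colonies, 4 were higher and 23 were not called, where 35.7% of all genes were called (20.9% lower and 14.8% higher). The median difference was -0.19, against -0.01 for all genes, and 1 member in each direction differed by at least 2-fold (1.62% of all genes higher and 2.02% lower). Rrm2 (-1.02), Rrm1 (-0.98), Dbf4 (-0.91) and Ccne2 (-0.91) were the furthest below. The 4 higher genes were Fam111a (1.23 ± 0.06, 2.35-fold, adjusted p = 5.52e-11), Pole2 (0.61), Pclaf (0.36) and Dnmt1 (0.24). Pole2 read 4.06, 3.52 and 3.88 in early large and 4.49, 4.57 and 4.23 in early treated small colonies, with 5.25, 5.16 and 5.03 in untreated small, 7.24, 6.98 and 6.99 in late large and 6.83, 6.83 and 7.17 in late treated small colonies. Dnmt1 read 7.18, 7.20 and 7.19 in early large, 7.49, 7.48 and 7.31 in early treated and 7.84, 7.89 and 7.81 in early untreated small colonies, and 8.99, 8.87 and 8.92 and 8.91, 8.97 and 8.98 in the late large and late treated groups. For both genes the early groups were separate and the late groups overlapped. Genes not called included Tk1 (-0.00, 95% interval -0.21 to 0.21), Mcm6 (-0.05), Cdc7 (0.04), Orc1 (-0.04), Cdc45 (-0.04), Cdc6 (-0.05), E2f2 (-0.02) and Rfc5 (-0.09). The calls of Mcm2, Mcm3, Pola1, Prim2, Rfc4 and Ccne1 in this comparison were lost in at least 1 alternative. Marker means also differed here, the stromal mean being 10.49 to 10.55 in treated small against 9.91 to 9.96 in large colonies and the cardiomyocyte mean 6.52 to 6.57 against 5.89 to 6.04. Of single markers Tnnt2 was higher by 2.39, the collagen gene Col3a1 was higher by 2.13 and the mural marker Rgs5 gave -3.71. Of 7 stromal markers, however, 3 were higher and 3 lower, and of 5 mural markers 2 were higher and 2 lower (median 0.03). Of 5 cardiomyocyte markers only Tnnt2 was called, and 4 were not (median 0.12). The part of these markers in the result was not tested.

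At passage 15, 28 genes were lower in treated small than in untreated large colonies, 4 were higher and 19 were not called, where 53.4% of all genes were called (24.2% lower and 29.2% higher). The median was -0.23, against 0.07 for all genes, and 1 member was lower and none higher by at least 2-fold (3.38% and 1.26% of all genes). Ccne1 differed most (-1.06 ± 0.06, 2.09-fold lower, adjusted p = 1.58e-10), followed by Ccne2 (-0.86), Uhrf1 (-0.85) and Fen1 (-0.82). All of the G1/S control genes but E2f2 were lower, by 0.44 (E2f1) to 1.06 in size. The 4 higher genes were Rfc4 (0.34), Pclaf (0.29), Pold1 (0.20) and Cdc45 (0.16). Rfc4 read 8.75, 8.68 and 8.60 in late large and 9.10, 8.87 and 9.06 in late treated small colonies, after 7.12, 7.14 and 7.03 in early large, 7.60, 7.69 and 7.83 in early untreated and 6.91, 6.67 and 6.84 in early treated small colonies. Pold1 read 7.43, 7.45 and 7.36 against 7.53, 7.57 and 7.74 late, and 6.22, 6.12 and 6.27, then 6.47, 6.58 and 6.39, then 6.32, 6.39 and 6.31 in the early large, untreated small and treated small groups. Cdc45, which joins the active helicase, read 7.08, 7.23 and 7.17 against 7.27, 7.37 and 7.33 late, and 5.92, 6.04 and 5.87, then 6.26, 6.35 and 6.30, then 5.82, 5.95 and 5.93 in the same early groups. The late groups did not overlap for these 3 genes, as for 34.2% of all genes with treated small colonies above. The call of Cdc45 was lost in 9 of 15 alternatives (adjusted p up to 0.406). Of the 28 lower calls, that of Mcm10 was lost in 9 of 14 (up to 0.169), and those of Mcm3, Asf1b, Cdc6, Gmnn, Orc6 and Rfc3 in 1 to 4 each (up to 0.162). With arrays centred on their medians only Rfc4 stayed called higher (Pclaf adjusted p = 0.058). Without replicate 3 of either late group 2 genes were called higher. Genes not called included Tk1 (0.02), Pole (-0.17), Mcm2 (0.15), Mcm6 (0.14), Dbf4 (0.14), Chaf1b (0.08), Dnmt1 (0.03) and Pole2 (-0.13). The further Tk1 probe set had group means of 8.53 in late large and 8.06 in late treated small colonies, so the value for Tk1 depends on the probe set. In the late treated group Lyz2 was 10.4-fold lower and Pdgfra lower by 2.21 on the log2 scale than in late large colonies. Of 7 stromal markers, however, 4 were higher and 2 lower (median 0.30), and of 5 leukocyte markers 2 were higher and 3 lower (median -0.19). Of 5 cardiomyocyte markers only Tnnt2 was called, higher by 1.76, and 4 were not called (median 0.13). Of 5 mural markers 2 were higher and 2 lower, with Cspg4 at 2.57 and Rgs5 at -1.99. The part of these markers in the result was not tested.

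The passage changes of the 2 kinds of colony were set against each other by a direct test of their difference. Of the 51 genes 7 rose more in treated small colonies, 7 rose less and 37 were not called, where 34.4% of all genes were called (18.6% higher and 15.9% lower). The median difference was -0.02, against 0.07 for all genes, and 1 member in each direction differed by at least 2-fold (1.41% of all genes higher and 2.82% lower). Fam111a had the largest difference (-1.91 ± 0.08, adjusted p = 3.55e-11), having risen by 4.22 in large and 2.30 in treated small colonies. Dbf4 followed with 1.05 ± 0.11 (adjusted p = 1.08e-06), having risen by 1.03 and 2.09, then Ccne1 (-0.89; 1.79 and 0.90) and Pole2 (-0.74; 3.25 and 2.51). Rrm1 and Rrm2 both rose more in treated small colonies, by 0.66 and 0.64, from lower values at passage 5. Genes not called included Mcm5 (-0.13, 95% interval -0.40 to 0.13), Pclaf (-0.07, -0.30 to 0.16), Asf1b (0.09, -0.12 to 0.29) and Ccne2 (0.05, -0.18 to 0.29).

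Other genes of the pathway, 73 of 75 listed, moved less uniformly. With passage in large colonies 52 rose, 7 fell and 14 were not called (median 0.60), and in treated small colonies 48 rose, 10 fell and 15 were not called (median 0.56). Of all genes 17.4% were called higher and 18.7% lower in large colonies, and 24.6% and 21.4% in treated small ones. Fbxo5, which encodes Emi1, rose by 3.52 and 3.19, and Hells, a chromatin remodeller, by 2.94 and 2.58. In untreated large against small colonies 15 were higher and 23 lower (18.2% and 18.0% of all genes). Mtbp (-0.91), a partner of treslin, and Skp2 (-0.75), an F-box protein, were furthest from 0. With PDGF-AB 7 rose and 31 fell (10.7% and 18.2% of all genes). Fbxo5 fell by 0.83 and Cdca7 by 0.75. Treated small against large colonies gave 11 higher and 26 lower at passage 5 (14.8% and 20.9% of all genes), led by E2f6 (1.05) and Cdk6 (-0.86). At passage 15 there were 11 higher and 37 lower (29.2% and 24.2% of all genes), led by Tfdp2 (-1.12), an E2F partner, and Ccnd3 (-0.98), cyclin D3. The passage changes differed for 30, 10 upward and 20 downward, where 34.4% of all genes were called (18.6% higher and 15.9% lower). E2f6, an E2F repressor (-1.63), and Cdk6, a kinase of G1 (1.09), led these. E2f6 fell by 1.51 with passage in treated small colonies and gave 0.12 in large ones (adjusted p = 0.165).

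Of the inhibitors of cyclin-dependent kinases, 6 of 7 were measured. Cdkn2c (p18) rose with passage by 1.05 in large and 0.72 in treated small colonies and fell by 0.95 with PDGF-AB, and Cdkn2b (p15) fell by 0.75 and 0.98 with passage and rose by 0.68 with PDGF-AB. Cdkn2a fell by 0.44 with passage in large colonies and gave -0.16 (adjusted p = 0.0974) in treated small ones, where it rose by 0.38 with PDGF-AB at passage 5. Cdkn1b (p27) rose by 0.54 with passage in large colonies and gave 0.09 (adjusted p = 0.225) in treated small ones, and fell by 0.19 with PDGF-AB. Cdkn2d rose by 0.49 and 0.21 with passage, and Cdkn1c was not called in either (-0.17 and 0.15).

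Mitosis genes, 18 of 19 listed, were set beside the replication genes. All 18 rose with passage in large (median 2.55) and treated small colonies (median 3.16). All 18 were lower in large than in small untreated colonies (median -1.14) and all fell with PDGF-AB (median -1.14). Mki67, the proliferation marker Ki-67, rose by 2.77 and 3.36 with passage and fell by 1.11 with PDGF-AB, and its 3 untreated small arrays had the same deposited value of 6.71. In treated small against large colonies at passage 5, 2 mitosis genes were higher, 4 lower and 12 not called (median 0.07, against -0.19 for the replication genes), and Mki67 was not called (0.19, adjusted p = 0.113). At passage 15, 12 mitosis genes were higher and 1 lower in treated small than in large colonies (median 0.41), among them Mki67 (0.78 ± 0.09, adjusted p = 1.79e-06), while 4 replication genes were higher and 28 lower. The passage change was greater in treated small colonies for 13 mitosis genes and smaller for 1 (median 0.54), against 7 and 7 of the replication genes. The difference between the lists was not tested, and the shares of all genes called in each comparison are those given above.

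**Figure D5:**
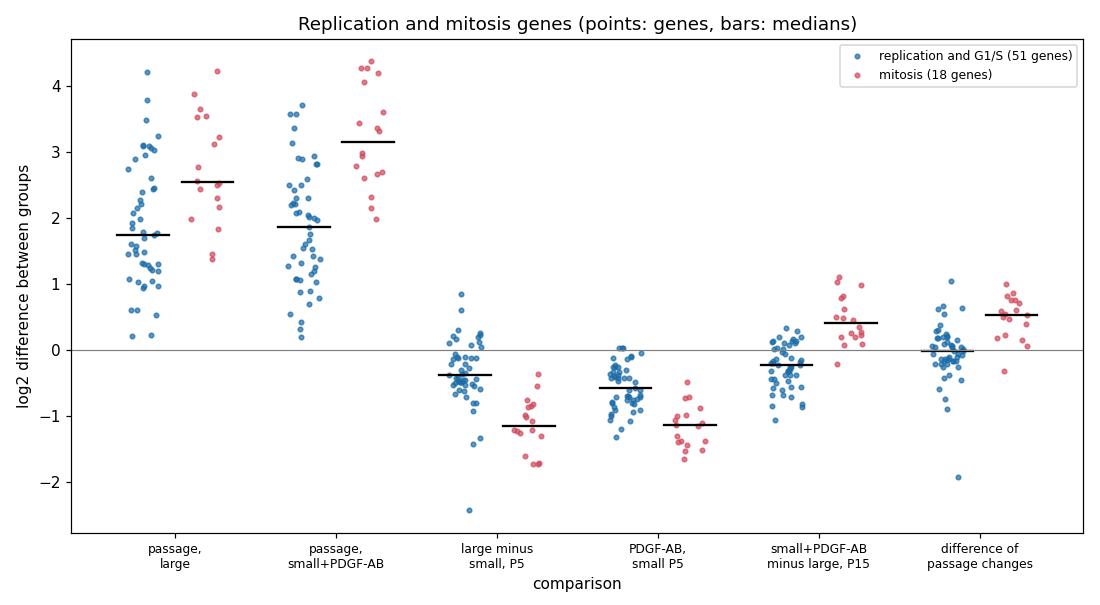
Log2 differences in 6 comparisons for 51 replication and G1/S genes (left points) and 18 mitosis genes (right points), with medians as bars. Both medians are above 0 for passage and below 0 for large minus small and for PDGF-AB at passage 5, and in treated small minus large colonies at passage 15 they are -0.23 and 0.41.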

How the data were processed

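Total RNA of 15 samples was hybridised to Affymetrix whole-transcript arrays, 1 array per sample. The deposited values are log2 intensities made by the authors; RMA and limma are named, without versions, in the submitters' processing notes. Scanner files were not used here. Of 28853 probe sets, 21789 named 1 gene. Where 999 genes had several, the one with the highest mean was kept, which left 19938 genes.

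A linear model over the 15 arrays was fitted per gene (limma 3.58.1, R 4.3.3; 10 residual and 5.80 prior degrees of freedom). The 7 comparisons used moderated 2-sided tests with Benjamini-Hochberg adjustment over 19938 genes and called genes under 0.05. The SE of a difference had a median of 0.0778, and 3 arrays a group limit precision. In simulated data for passage in large colonies 32% of genes changed by 0.25 (log2) were called, 84% at 0.5 and 100% at 1 and 2, with 50 genes of each size among 19938. In the data 36.1% of genes were called in that comparison, far more than were changed in the simulation, so these shares need not hold there.

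Members and lists were chosen with earlier results of these data known. Array values are given for the 2 largest and the smallest passage changes of each role and for members called against the majority; in each comparison the 4 largest changes and up to 8 members not called are named, and of other pathway genes the 2 largest. All of the uncalled members are listed where there were 14 or fewer, and further members were named after their values were seen. Alternatives were array centring, cyclic loess, leaving out low genes, all probe sets or their mean, array weights, trend and robust moderation, the compared arrays alone, the replicate block, a 2-fold minimum and leaving out each array. The replicate numbers did not meet the rule for pairing.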

Additional observations from a re-analysis of the deposited data

Results flagged for a closer look

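In 14 of the 51 genes the passage change differed between treated small and untreated large colonies by the test of the difference itself (limma, adjusted over 19938 genes), where 34.4% of all genes were called, so the share of members was not above that of all genes. Colony size and PDGF-AB cannot be told apart in it. Values are the passage change in treated small minus that in large colonies, on the log2 scale. Among genes that rose more in treated small colonies, Dbf4 had 1.05 (adjusted p = 1.08e-06), Rrm1 0.66 (6.25e-06), Rrm2 0.64 (1.9e-05), Rfc4 0.63 (4.93e-04), Chaf1b 0.55 (7.3e-04), Mcm2 0.38 (0.0227) and Prim2 0.29 (0.0124). Among genes that rose less, Fam111a had -1.91 (3.55e-11), Ccne1 -0.89 (2.7e-07), Pole2 -0.74 (0.00534), Uhrf1 -0.58 (0.0104), Pola2 -0.45 (0.00274), E2f7 -0.42 (0.00102) and Mcm10 -0.26 (0.0255). All 14 rose with passage in both kinds of colony. The calls of Mcm2, Mcm10 and Prim2 were lost in at least 1 alternative, with adjusted p up to 0.0834, 0.063 and 0.0738, and those of the other 11 held in every alternative run except a 2-fold minimum, under which 1 gene in each direction was left.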

How the results depend on the processing

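Of 5598 values of single members under the alternatives, 5355 kept their direction and side of the threshold, 106 lost a call, 49 gained one, 88 were values without a call that changed sign, and no called value changed sign. The members called with passage, 50 in each kind of colony, stayed between 49 and 51 without any 1 array. A minimum of 2-fold left 0 higher and 3 lower in large against small colonies at passage 5, 4 lower with PDGF-AB, 1 and 1 in treated small against large colonies at passage 5, 0 and 1 at passage 15, and 1 and 1 for the difference of passage changes. Centring arrays on their medians left 1 member higher at passage 15 (30 lower) and moved the median there from -0.23 to -0.32; the difference of passage changes then had 5 higher and 8 lower, and 7 and 8 with cyclic loess. The median difference of passage changes, -0.02, turned to 0.032 with only the genes above the median level (42 members left) and ranged from -0.060 to 0.0041 without 1 array, above 0 only without replicate 1 of early treated small colonies; the cause was not tested. Without 1 array, the members higher in large than small colonies at passage 5 numbered 4 to 6, with 4 when replicate 1 of early large colonies was left out, and those higher at passage 15 numbered 2 to 4. Replicate numbers are shared between groups, but deviations of same-numbered arrays correlated at -0.277 to 0.208, and in passage of large colonies, where all 6 arrays correlated best with their own number, at 0.0984 to 0.208, which is a hint from the data and not the design. With the number as a replicate block 50 members rose with passage in each kind of colony, 7 were higher and 30 lower in large than small colonies, 42 fell with PDGF-AB, 4 and 25, then 4 and 27 were called in treated small against large colonies, and 8 and 7 for the difference. Signal limits genes near the arrays' lower quartile, such as Orc1.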
